A study of Mus musculus with 14 samples.

Results

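The immunoglobulin heavy chain V segments, named Ighv in the mouse, were examined as a group in leukocytes sorted from liver. Their members were all rows of the deposited count table whose Ensembl gene identifier maps to a symbol beginning with Ighv, which gave 185 of 48794 rows. They carry 183 distinct symbols, because Ighv1-13 and Ighv5-8 each name 2 rows. All lie on chromosome 12 of GRCm38, between positions 113572927 and 116010093, and 183 of them run on the minus strand. GENCODE M21 annotates 113 as V genes, 70 as V pseudogenes and 2 as another immunoglobulin type.

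RNA was sequenced from livers of WT mice that had received no treatment. CD45+ cells, the leukocytes, were taken from liver needle biopsy tissue by flow cytometry at 2500, 5000, 10000 or 20000 cells per sample, with 3 libraries at each cell number, and 2 libraries of bulk liver tissue served as the control. The labels state neither the age nor the strain of the mice. They leave it unsaid which libraries share an animal, so each p-value reflects the spread among these libraries, which may be technical. Total counts per library ranged from 6723357 to 14496314. The presence of B cells was read from 12 B cell markers. Their summed level was 6187 to 6856 CPM (counts scaled to the same library size) in the sorted libraries and 17.0 to 19.2 CPM in bulk liver. None of the 12 was at 0 in a whole group. The 5 T cell markers were also far higher after sorting, at 968 to 1155 CPM against 1.71 to 2.74 CPM in bulk liver. The B cell sum therefore shows B cells among the sorted cells and does not by itself tie the Ighv signal to them.

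A heavy chain variable region is built when a developing B cell joins 1 V, 1 D and 1 J segment of the locus on a chromosome, after which the B cell and its progeny transcribe that V segment with a constant region. Each B cell therefore shows mostly a single V segment, and a B cell population shows a repertoire of them. Plasma cells, the antibody-secreting descendants of B cells, hold far more heavy chain RNA per cell than resting B cells. The V segments fall into families by sequence similarity, of which Ighv1, also called J558, is the biggest in the mouse and lies mostly in the part of the locus farthest from the D segments.

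These sequences are shown because the results below turn on them. They come from the coding transcripts of GENCODE M21 on GRCm38, in which leader and V exon are joined, read 5′ to 3′ on the minus strand. Ighv4-1 (chr12:113948282-113948796) is the segment most concentrated in a single library. Ighv1-63 (chr12:115495625-115496058) is the segment that differed most clearly between the lowest and highest cell number. For both the last 90 bases of the transcript are printed, and the capitals mark the codon of the conserved cysteine just before the junction with the D segment.
Ighv4-1: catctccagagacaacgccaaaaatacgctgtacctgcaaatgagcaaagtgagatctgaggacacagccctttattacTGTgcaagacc
Ighv1-63: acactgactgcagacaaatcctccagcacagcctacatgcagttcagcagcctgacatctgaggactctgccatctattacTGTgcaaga
Ighv1-62-2 (chr12:115446409-115446869) and Ighv1-71 (chr12:115742205-115742647) are shown because they are nearly the same sequence, and their first 90 bases are printed with a capital at the 1 base in which they differ. Ighv1-72 (chr12:115757984-115758461) and Ighv1-62-3 (chr12:115460999-115461485) differ in the 3 bases in capitals and are printed from base 50 to base 348. Ighv1-72 is V186.2, the segment known for the response of some mouse strains to the hapten nitrophenyl.
Ighv1-62-2: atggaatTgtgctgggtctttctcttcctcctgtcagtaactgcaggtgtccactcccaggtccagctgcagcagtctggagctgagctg
Ighv1-71: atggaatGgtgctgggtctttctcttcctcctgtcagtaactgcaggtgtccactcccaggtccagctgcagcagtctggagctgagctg
Ighv1-72: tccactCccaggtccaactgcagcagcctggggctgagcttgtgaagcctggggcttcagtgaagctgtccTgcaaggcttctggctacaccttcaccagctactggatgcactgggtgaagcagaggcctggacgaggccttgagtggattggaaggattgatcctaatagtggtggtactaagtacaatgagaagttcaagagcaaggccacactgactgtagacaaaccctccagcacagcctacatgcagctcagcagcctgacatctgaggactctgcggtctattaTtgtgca
Ighv1-62-3: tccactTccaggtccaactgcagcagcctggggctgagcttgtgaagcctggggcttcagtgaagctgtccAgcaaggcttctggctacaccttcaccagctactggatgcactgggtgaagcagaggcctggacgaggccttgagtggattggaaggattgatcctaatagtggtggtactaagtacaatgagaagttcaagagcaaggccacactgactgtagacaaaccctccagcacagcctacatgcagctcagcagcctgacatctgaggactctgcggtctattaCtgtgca

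Ighv transcripts were abundant in the sorted cells and near absent from bulk liver. Summed over all segments, Ighv took 396, 331 and 399 CPM in the libraries of 2500 cells and 503, 456 and 531 CPM in those of 5000 cells. The libraries of 10000 cells held 454, 435 and 433 CPM, those of 20000 cells held 458, 413 and 420 CPM, and bulk liver held 1.18 and 0.498 CPM. The sorted mean was 435.6 ± 51.8 CPM (SD, n = 12) against 0.841 ± 0.485 CPM (SD, n = 2) in bulk liver, which is 518 times higher. Fewer B cells and less RNA per B cell cannot be told apart in such samples. Bulk liver held 13 Ighv counts in all, against 49779 in the sorted libraries.

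Of 80 segments that passed the filter on low counts, 75 were higher in sorted cells by edgeR's quasi-likelihood test at a Benjamini-Hochberg adjusted p under 0.05 and none was lower. That filter was passed only through the sorted libraries, so this count describes the segments and supports nothing further. Of all 16294 genes tested, 80.3% were called, 41.8% as higher and 38.5% as lower. Other parts of the heavy chain locus were also far lower in bulk liver. Ighm, the IgM constant region, was at 10.8 and 11.6 CPM there and at 3287 to 4426 CPM in the sorted libraries. The 4 J segments summed to 10.4 ± 1.27 CPM (SD, n = 12) and were at 0 in both bulk libraries. Of 20 D segment rows, 8 had a count, at 1.21 ± 0.412 CPM in sum, also with 0 counts in bulk liver. Light chain V segments, 163 rows, summed to 1014 ± 115 CPM (SD, n = 12) after sorting, and bulk liver held 2.38 ± 0.906 CPM of them (SD, n = 2).

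**Figure D1:**
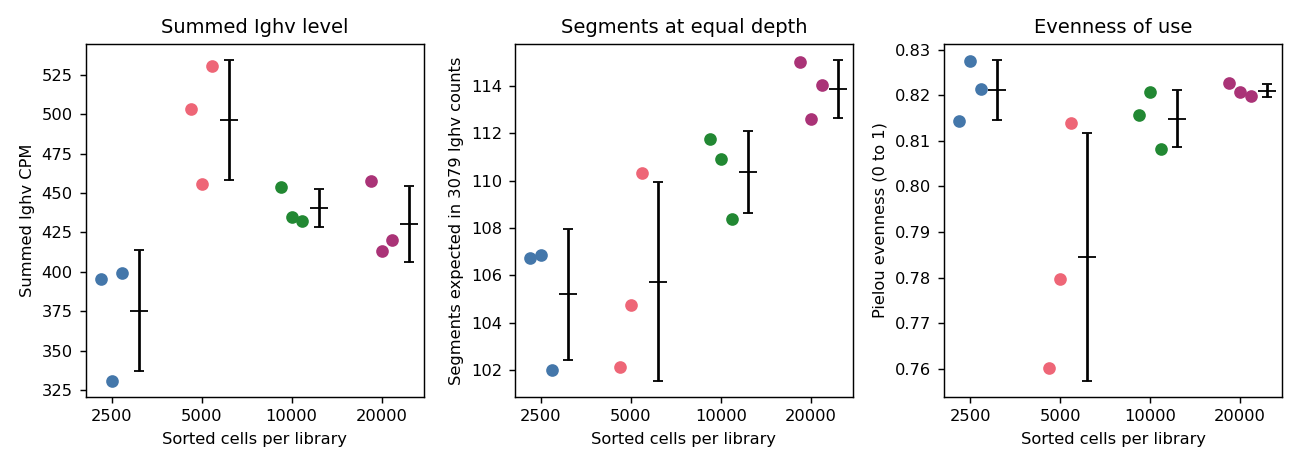
Summed Ighv level in CPM, segments expected in 3079 Ighv counts, and Pielou evenness, for each of the 12 sorted libraries by number of sorted cells; points are libraries and the black marks are the mean ± SD of 3 libraries. The 3 libraries of 2500 cells lie lowest in summed level, the segments at equal depth are highest at 20000 cells, and 2 libraries of 5000 cells lie lowest in evenness; the vertical axes do not start at 0.

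The summed level did not change steadily with cell number. Pearson's r with the log2 of the cell number was 0.247 (permutation p = 0.443, adjusted over 6 measures 0.839) and Spearman's rho was 0.302 (p = 0.350, adjusted 0.641). The level was lowest at 2500 cells, 375 ± 38.4 CPM (SD, n = 3), highest at 5000 cells, 496 ± 38.0 CPM, and lower again at 10000 and 20000 cells, 441 ± 11.8 and 430 ± 24.2 CPM. The 3 libraries of 2500 cells all lay below the other 9, with a highest value of 399 CPM against a lowest of 413 CPM. This contrast, chosen after the values were seen, gave a two-sided exact permutation p of 0.0136 (adjusted 0.0818 over the 6 measures), where the smallest p that 220 arrangements allow is 0.0045. Without the 2500-cell libraries, r turned to -0.741 (permutation p = 0.0217), and without the second of them alone it was -0.0153.

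The Ighv counts were also set against the heavy chain constant region counts of the same library. Pearson's r of this ratio with the log2 of the cell number was 0.425 (permutation p = 0.168, adjusted 0.503). Spearman's rho was 0.583 (permutation p = 0.0544, adjusted 0.163). The contrast of 2500 cells with the rest was again chosen after the values were seen. There were 7.30 ± 0.159 Ighv counts per 100 constant region counts at 2500 cells and 8.47 ± 0.699 in the other 9 libraries (two-sided exact permutation p = 0.0273, adjusted 0.0818, n = 3 and 9). The ranges of 7.12 to 7.40 and 7.66 to 9.99 did not overlap. None of the 12 B cell markers differed between 2500 and 20000 cells by edgeR's adjusted p.

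Of the 185 segments, 141 had at least 1 count in a sorted library, 81 had counts in all 12 and 44 had none. The V genes were nearly all seen, 107 of 113, and the 6 without a count were Ighv5-12-4, Ighv7-2, Ighv16-1, Ighv1-16, Ighv1-24 and Ighv8-13. Of the 70 pseudogenes, 33 had a count, and together they held 1.17% of the Ighv counts, between 0.975% and 1.64% per library. Ighv1-38 and Ighv1-2, with 130 and 117 counts, were the pseudogenes with the most.

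The number of different segments rose with the number of sorted cells once the depth was made equal. Each library was brought to 3079 Ighv counts, the number in the library with the fewest, by calculating the expected number of segments in such a draw. This gave 106.7, 106.9 and 102.0 segments at 2500 cells and 102.1, 104.7 and 110.3 at 5000 cells. It gave 111.7, 110.9 and 108.4 segments at 10000 cells and 115.0, 112.6 and 114.0 at 20000 cells. All 3 libraries of 20000 cells lay above the other 9, while the ranges of 2500 and 5000 cells overlapped. Pearson's r with the log2 of the cell number was 0.817 (permutation p = 0.00192, adjusted over 6 measures 0.0115) and rho was 0.864 (p = 8.2e-04, adjusted 0.00492).

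With any pair of the 6 libraries at the ends of the cell number scale left out, r for the segments at equal depth ran from 0.712 to 0.882. Without making depth equal, r was 0.689 for segments with at least 1 count (permutation p = 0.0169) and -0.0758 for those with at least 10 (p = 0.828), of which a library held 58 to 79.

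At 2500 cells 124 segments were seen in any library and 89 in all 3. The same counts were 128 and 93 at 5000 cells, 129 and 101 at 10000 cells, and 129 and 98 at 20000 cells, with different depths. No count at 2500 cells was found for 17 segments that were seen elsewhere, of which 11 were pseudogenes. The most abundant of these, Ighv1-83, had 40 counts elsewhere, 24 of them in the first library of 5000 cells, and Ighv1-25 had 26. Conversely 12 segments seen elsewhere had no count at 20000 cells, 9 of them pseudogenes, and the highest of these, Ighv8-1, had 6 counts. A count of 0 over the 10425 Ighv counts at 2500 cells or the 10157 at 20000 cells shows only that a segment was not detected at this depth.

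Use was spread over many segments and no segment dominated the sorted cells as a whole. Per length, on the scale of mean CPM per kb over the 12 sorted libraries, the highest were Ighv3-6 at 57.5, Ighv1-80 at 52.7, Ighv1-82 at 46.0, Ighv9-3 at 45.2 and, after Ighv1-26, Ighv1-64 at 40.1. Without the first library of 5000 cells, Ighv1-80 was at 33.7 CPM per kb, below Ighv1-18. Next in the order were Ighv1-9 at 36.6, Ighv1-18 at 35.6 and Ighv5-4 at 30.8. This order depends on the measure and was not the same in the deposited TPM, as given below. Whether neighbours in the order differ from each other was not tested. Their spread between libraries, in CPM and not per length, was unequal. Ighv3-6 had 20.1 ± 8.20 CPM, Ighv1-80 18.5 ± 23.1 CPM and Ighv1-26 15.1 ± 2.34 CPM (SD, n = 12). Ighv1-9 was among the steadiest of them, at 10.5 to 14.9 CPM in every sorted library, and Ighv1-18 ran from 9.81 to 15.4 CPM. Ighv1-26 ran from 12.1 to 19.0 CPM.

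**Figure D2:**
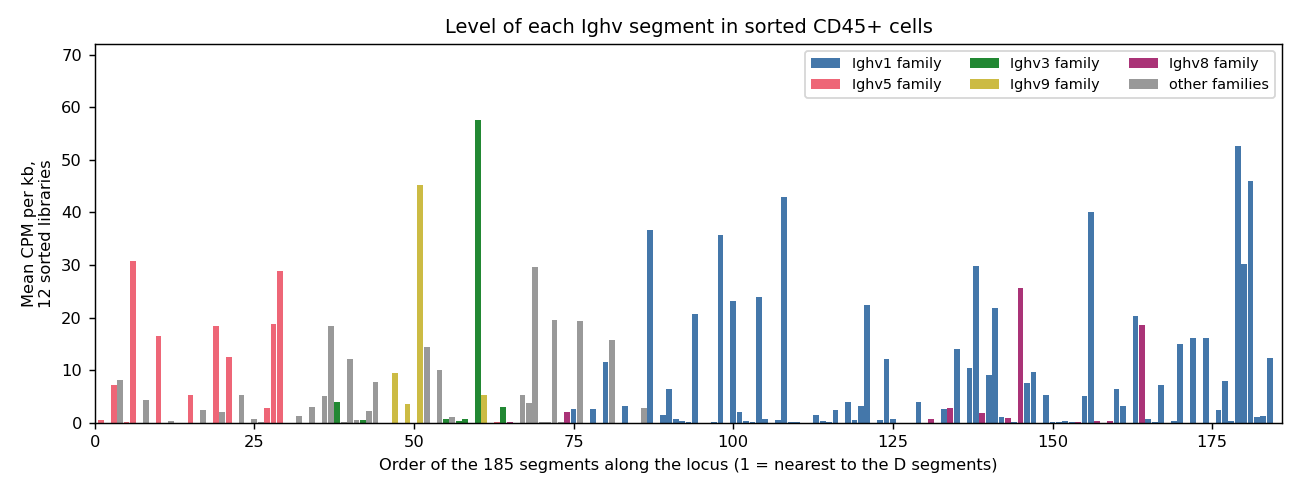
Mean CPM per kb over the 12 sorted libraries for each of the 185 Ighv segments, in their order along the locus with the segment nearest to the D segments at the left; colours mark families. High and low segments alternate along the whole locus, and the Ighv1 family fills most of the right side.

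The Ighv1 family, 93 segments of which 74 had a count, held 55.1% of the Ighv counts, between 46.9% and 66.4% per library. Ighv5, lying nearest to the D segments, held 12.6% (8.74% to 20.9%), and Ighv3 held 5.52% (3.62% to 10.0%). Ighv9, Ighv8, Ighv6, Ighv10 and Ighv14 held 5.14%, 4.41%, 4.06%, 2.90% and 2.87%. The share of Ighv4 ran from 0.187% to 16.6%, and the only member of Ighv16 had no count. The Ighv1 share showed no relation with cell number (r = 0.102, permutation p = 0.757, adjusted 0.839).

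Position in the locus showed next to no relation with the level. Over the 141 segments with a count, Spearman's rho between the order from the D segments and the mean CPM was -0.0165, given as a description since all values come from the same libraries. When the segments were cut into 4 blocks by order, the median share of the Ighv counts over the sorted libraries was 18.4%, 25.5%, 22.1% and 31.5% from the D side outward. Ighv5-2, the segment known as 81X that fetal and immature B cells use often, ran from 1.05 to 3.86 CPM, with a mean of 2.55 ± 0.923 CPM (SD, n = 12). Its level per length was 7.24 CPM per kb.

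Evenness, which is 1 when all 141 segments are used alike, was 0.814, 0.828 and 0.821 at 2500 cells and 0.760, 0.780 and 0.814 at 5000 cells. It was 0.816, 0.821 and 0.808 at 10000 cells and 0.823, 0.821 and 0.820 at 20000 cells. Thus 10 libraries lay between 0.808 and 0.828, and the first and second libraries of 5000 cells lay below. In terms of an effective number, the libraries ran from 43.01 equally used segments in the first library of 5000 cells to 60.1 in the second of 2500 cells. Pearson's r of evenness with the log2 of the cell number was 0.175 (permutation p = 0.596, adjusted 0.839) and rho was 0.108 (p = 0.757, adjusted 0.757). Without the 2500-cell libraries r was 0.720 (permutation p = 0.0104), and without the 2 uneven libraries of 5000 cells it was -0.0583 (p = 0.872).

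The 2 uneven libraries each owed this to a segment that stood far above its level elsewhere. Ighv1-80 made up 18.2% of the Ighv counts in the first library of 5000 cells, with 781 counts or 91.7 CPM, against 8.12 to 14.7 CPM in the other 11 libraries. Ighv4-1 made up 16.5% in the second library of 5000 cells, with 1089 counts or 75.1 CPM, against 0.940 to 2.21 CPM in the other 11. That is 58.1 times the median of the others, and 87.8% of all Ighv4-1 counts came from that library. In the other sorted libraries the highest segment took 4.55% to 9.33%.

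**Figure D3:**
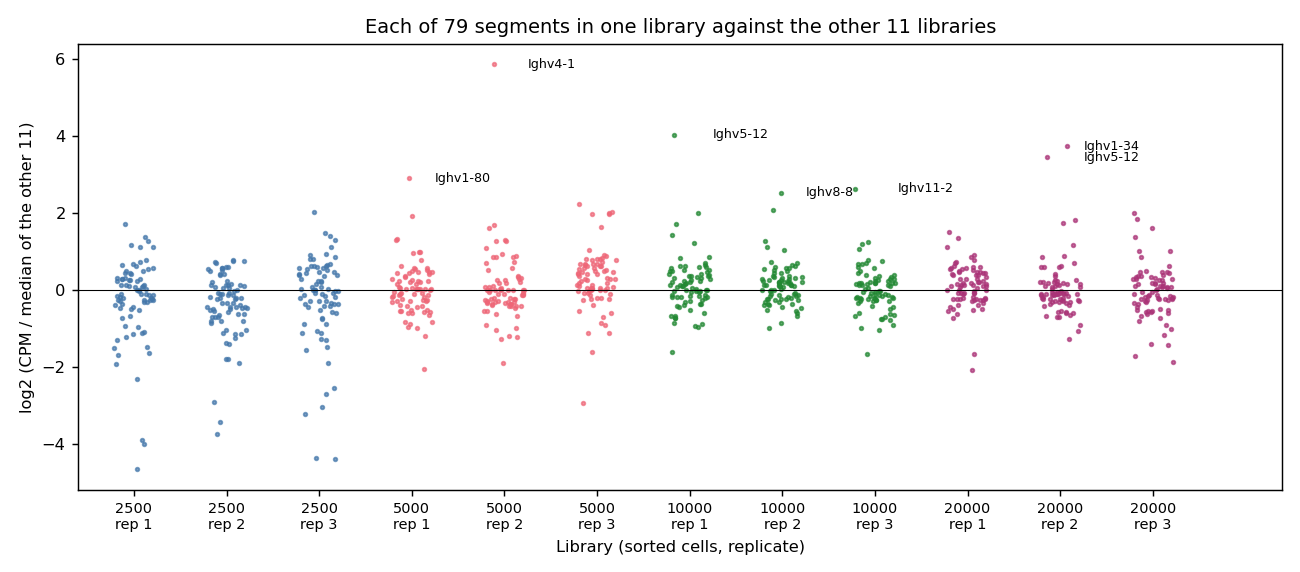
log2 ratio of the CPM of each of 79 segments with at least 100 sorted counts in a library to the median of the other 11 libraries; each point is a segment, values of 0 are drawn at 0.05 CPM, and segments at 5 times or more are named. The points far above the line lie in libraries of 5000, 10000 and 20000 cells, and the 2500-cell libraries have the points farthest below it.

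Such single-library peaks were counted among the 79 segments with at least 100 sorted counts, by a rule set after the values were seen: at least 20 counts and at least 3 times the median of the other 11 libraries. The 100 counts include those of the peak library, and some segments reached 100 only through it. These were Ighv1-34, Ighv11-2, Ighv8-5, Ighv15-2 and Ighv1-49, with 106, 117, 117, 112 and 101 counts. Of these counts 52, 31, 24, 30 and 23 lay at the peak, so the number of peaks is a description only. There were 22 peaks in 20 segments. The libraries of 2500 cells had 0, those of 5000 cells 11, those of 10000 cells 5 and those of 20000 cells 6. The third library of 5000 cells had 6 and the first library of 20000 cells 0. The rule was not applied to other genes, so these numbers have no share of all genes beside them. The minimum of 20 counts is also easier to reach in a deeper library. Total counts were 14496314 in the second library of 5000 cells and 6723357 in the first of 20000 cells, so libraries are not on equal terms. The segments at a peak held 18.3% to 19.0% of the Ighv counts in each library of 5000 cells, 0.736% to 12.2% at 10000 cells and up to 10.6% at 20000 cells.

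Ighv5-12 was the only one of these with separate peaks in libraries of different cell numbers: 34.4 CPM in the first library of 10000 cells and 23.0 CPM in the second of 20000 cells, against 1.33 to 3.47 CPM in the other 10. Ighv8-8 reached 38.7 CPM in the second library of 10000 cells against 4.00 to 10.7 CPM elsewhere. Ighv1-34 reached 5.61 CPM, from 52 counts, in the second library of 20000 cells and was at most 1.19 CPM elsewhere. Ighv9-3 reached 36.3 CPM in the third library of 5000 cells, and also stood at 27.3 and 26.3 CPM in the 2 libraries with an Ighv5-12 peak, against 8.62 to 13.2 CPM in the other 9.

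Some plasma cell transcripts were lowest in the libraries without a peak at 2500 cells. Jchain, which encodes the chain that joins IgA and IgM units, was at 0 to 0.650 CPM in the libraries of 2500 cells and at 47.1 to 114 CPM in the other 9 sorted libraries. Igha, the IgA constant region, was at 2.67 to 27.7 CPM at 2500 cells and 113 to 299 CPM elsewhere. The whole list of 8 plasma cell markers summed to 502 to 534 CPM at 2500 cells and to 572 to 666 CPM in the other sorted groups. Tnfrsf17 was at 0 in all 3 libraries of 2500 cells, but had only 3 to 9 counts in each of the other 9, too few to be tested. Jchain is part of the sum over the list, and the other members did not all go the same way. Mean CPM at 2500 and 20000 cells were 308 and 299 for Xbp1 and 32.9 and 29.2 for Prdm1. They were 67.2 and 69.8 for Irf4, 17.0 and 17.3 for Sdc1, 86.8 and 112 for Mzb1, and 1.55 and 3.47 for Derl3. By edgeR's adjusted p, 1 of 7 tested members was lower at 2500 than at 20000 cells, Jchain, and 1 of 6 tested constant regions, Igha. The first library of 20000 cells had no peak with Jchain at 58.3 CPM. The part of the plasma cell transcripts was not tested.

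Of the 4 IgG constant regions, 2 were highest in a library with an Ighv5-12 peak. Ighg2b stood at 124 CPM in the first library of 10000 cells against 1.39 to 57.7 CPM in the other 11, where the 57.7 CPM was in the first library of 20000 cells, without any peak. Ighg1 stood at 101 CPM in the second library of 20000 cells against 0 to 3.57 CPM in the others. Ighg3 was highest in the second library of 5000 cells, at 8.76 CPM, and Ighg2c in the second of 10000 cells, at 1.32 CPM. Their part in the Ighv results was not tested. Which V segment was joined to which constant region cannot be read from counts per gene.

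Libraries of the same cell number differed from each other about as much as libraries of different cell numbers. The Bray-Curtis dissimilarity of the Ighv shares, 0 for equal and 1 for separate use, averaged 0.191 over the 3 pairs at 2500 cells (0.181 to 0.209) and 0.288 at 5000 cells (0.270 to 0.317). It averaged 0.218 at 10000 cells (0.193 to 0.233) and 0.188 at 20000 cells (0.181 to 0.199). The 54 pairs of different cell numbers averaged 0.227, or 0.206 over the 36 pairs without the first and second libraries of 5000 cells. The difference between 2500 and 20000 cells was 0.00339, below the mean SD over pairs of 0.0182, and no test was made since pairs share libraries. It was 0.0291 without the top segment of each library, and ran from -0.00725 to 0.0212 with each library left out.

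The chi-square statistic of the Ighv counts per degree of freedom, about 1 when libraries differ by counting noise alone, averaged 4.07 at 2500 cells, 14.0 at 5000 cells, 6.88 at 10000 cells and 4.01 at 20000 cells. The lowest pair, at 20000 cells, gave 3.14. This statistic also grows with depth, and the libraries of 5000 cells held 16399 Ighv counts against 10157 to 12798 in the other groups, so the groups are not on equal terms. For which segments were detected, the Jaccard distance averaged 0.197 at 2500 cells (0.192 to 0.203), 0.190 at 5000 (0.160 to 0.207), 0.151 at 10000 (0.136 to 0.161) and 0.164 at 20000 cells (0.137 to 0.203). The range at 20000 cells overlaps those of the other 3 cell numbers, and depths were not made equal.

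**Figure D4:**
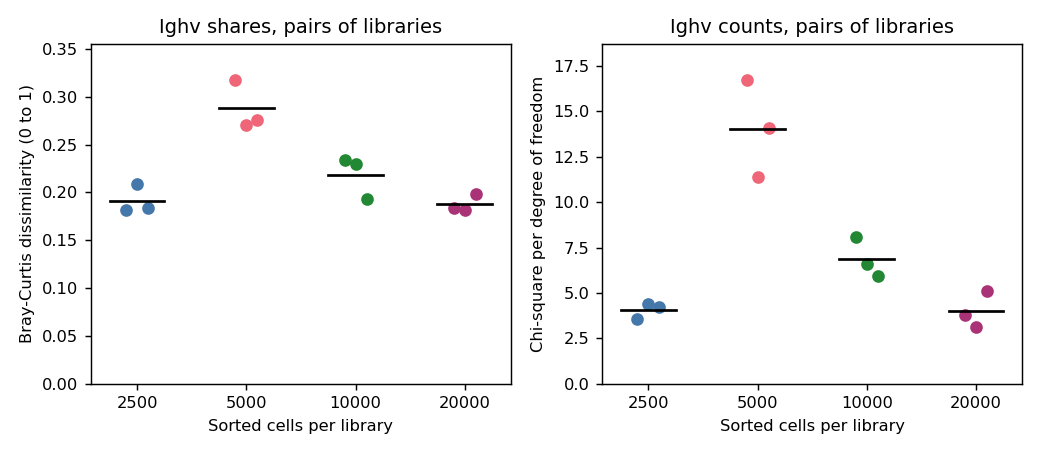
Bray-Curtis dissimilarity of Ighv shares (left) and chi-square per degree of freedom of Ighv counts (right) for each pair of libraries of the same cell number; points are pairs and lines are means of 3 pairs. Pairs at 5000 cells lie highest, at 0.270 to 0.317 and 11.4 to 16.7, and pairs at 2500 and 20000 cells lie lowest.

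Ighv segments were more variable between libraries of the same cell number than other genes of similar level. The biological coefficient of variation from the edgeR fit had a median of 0.301 over the 78 segments tested. Over all 14795 genes tested it was 0.124, and over the 6892 genes within the range of levels of the segments it was 0.214. Light chain V segments had a median of 0.263 over 88 tested. Of the 78 Ighv segments, 12 (15.4%) lay above 0.446, the value that 5.01% of the genes in that range exceeded. Of the 88 light chain V segments, 9 (10.2%) did so too. Ighv5-12 and Ighv4-1 were the highest at 1.06 and 1.01, followed by Ighv11-2 at 0.773 and Ighv8-8 at 0.619.

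Ighv11-2 and Ighv12-3 are known as the segments of B-1 cells that bind phosphatidylcholine. Ighv11-2 ran from 0 to 3.18 CPM, with 31 counts in the third library of 10000 cells and 0 in the first of 2500 cells. Within the 2500-cell libraries alone it was 0, 0.0991 and 2.09 CPM. Ighv12-3 ran from 0.259 to 4.33 CPM and was highest in the third and second libraries of 5000 cells, at 4.33 and 2.97 CPM. The 4 B-1 cell markers summed to 138 to 160 CPM in the sorted libraries, with none at 0.

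Segment by segment, few differences between cell numbers stood out from this spread. Of 78 segments tested, 0 had a slope against log2 cell number at an edgeR adjusted p under 0.05, where 0.0811% of all genes did. At an unadjusted p under 0.05 there were 5 segments, 6.41%, against 10.7% of all genes, and DESeq2 called 1, Ighv1-81. For 5000 against 20000 cells 0 segments were called, where 0.0879% of all genes were; at an unadjusted p under 0.05 there were 5 segments, 6.41%, against 8.13% of all genes. For 10000 against 20000 cells 0 were called, where 0.304% of all genes were; at an unadjusted p under 0.05 there were 2 segments, 2.56%, against 10.2% of all genes. The test of any difference among the 4 cell numbers called 1, Ighv1-63 (edgeR adjusted p = 0.0275), where 0.297% of all genes were called. Ighv1-63 stayed called when the first library of 2500, 10000 or 20000 cells or the third of 5000 cells was left out, and not when any of the other 8 was.

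Between 2500 and 20000 cells, 2 of the 78 segments differed and both were lower at 2500 cells, where 0.419% of all 14795 genes were called and 0.338% were lower. Ighv1-63 had 4, 2 and 2 counts at 2500 cells, 23, 49 and 19 at 5000, 16, 22 and 27 at 10000, and 10, 20 and 18 at 20000 cells. The libraries of 2500 cells, at 0.198 to 0.433 CPM, lay below all others, which held 1.49 to 3.38 CPM. The log2 difference was -2.75 ± 0.520 (SE; edgeR adjusted p = 0.0285). Without the second or the third library of 2500 cells the edgeR adjusted p was 0.0659 or 0.0559, and without the second or the third of 20000 cells it was 0.128 or 0.136.

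Ighv1-81 was at 4.44, 7.93 and 3.72 CPM at 2500 cells, 11.04, 8.76 and 13.3 at 5000, 11.7, 10.98 and 12.3 at 10000, and 19.8, 14.7 and 8.54 CPM at 20000 cells. Its counts ran from 32 to 138 per library, and the libraries of 2500 cells again lay below all others. Its log2 difference was -1.39 ± 0.295 (SE; edgeR adjusted p = 0.0487). Leaving out any 1 library other than the second of 2500 cells or the third of 20000 cells brought its edgeR adjusted p to 0.0580 to 0.156.

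In all, 5 of the 78 segments had their 3 libraries of 2500 cells below the other 9, which is 6.41% against 1.28% of all 14795 genes tested, and 0 had them above, against 0.818% of all genes. The summed Ighv level at 2500 cells was itself below that of the other 9 libraries, as given above. Besides Ighv1-63 and Ighv1-81 these were Ighv7-3, Ighv1-7 and Ighv1-12, which are named after their values were seen. Ighv7-3 was at 2.17 to 3.95 CPM at 2500 cells and 4.75 to 7.13 CPM elsewhere. The median log2 difference between 2500 and 20000 cells was -0.0723 over the 78 segments and 0.00941 over all genes tested. At an unadjusted p under 0.05 there were 9 segments, 11.5%, against 13.3% of all genes.

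How well a segment can be counted depends on how unlike the other segments it is. All 185 segments had a transcript in GENCODE M21. No 2 were identical, 47 had every window of 50 bases to themselves, and the median identity to the nearest other segment was 92.7%. The deposited TPM, abundances scaled by transcript length and library, were compared with the counts, both per length. Their ratio had a median of 1.99 over 33 segments with at least 90% of windows found in no other segment, 2.13 over 71 with 50% to 90%, and 3.22 over 12 with under 50%.

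**Figure D5:**
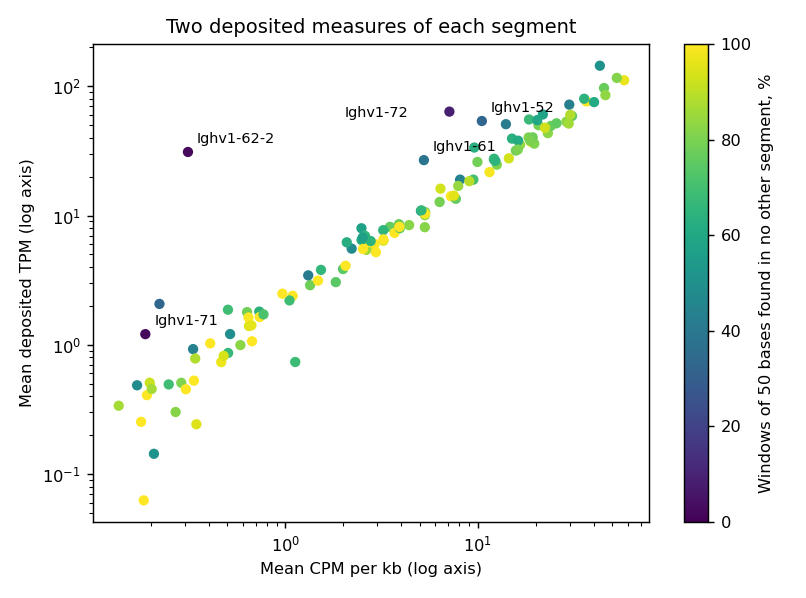
Mean deposited TPM against mean CPM per kb over the 12 sorted libraries, both on log axes, for each segment with at least 5 sorted counts; colour is the percentage of 50-base windows found in no other segment. Ighv1-62-2, with 2.58% of such windows, lies farthest above the other segments, followed by Ighv1-62-3 and Ighv1-72.

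For the near-copies printed above, the 2 measures parted. Ighv1-62-2 and Ighv1-71, which differ by 1 base of 359, had 13 and 8 counts over the 12 sorted libraries but mean TPM of 31.03 and 1.21. The TPM of Ighv1-71 were 0 in 10 sorted libraries, while those of Ighv1-62-2 ran from 17.2 to 41.4. Ighv1-72 had 314 counts and a mean TPM of 63.7, a ratio to its counts per length of 8.96, and Ighv1-62-3 had 11 counts and a mean TPM of 2.07. Ighv1-52 and Ighv1-61, which differ by 5 edits, had ratios of 5.14 and 5.12. The counts of these segments, and how they divide between the copies, are therefore uncertain.

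The other segments that carried results differed in how much they share. Ighv11-2 has 4 edits to Ighv11-1 and 47.7% of its windows to itself, so its counts are uncertain as well. Ighv1-26 has 51.0% of its windows to itself, and its ratio of TPM to counts per length was 3.36. By mean TPM Ighv1-26 was the highest segment, at 144, above Ighv1-80 at 116 and Ighv3-6 at 111. The order of the highest segments is therefore uncertain. Ighv4-1 has 67.8% of its windows to itself and 25 differences to its nearest relative, Ighv4-2, and its TPM was 545 in the second library of 5000 cells against 6.62 to 16.03 in the other sorted libraries. Ighv1-80 has 81.5% to itself, and its TPM was 570 in the first library of 5000 cells against 50.6 to 93.7 elsewhere. Ighv1-63 has 65.9% to itself, with 10 edits to Ighv1-73, an identity of 97.2% that lies above the median. Its TPM were 2.69, 1.39 and 1.68 at 2500 cells and 8.02 to 19.4 in the other 9 libraries, so that the patterns of Ighv4-1, Ighv1-80 and Ighv1-63 stood in both deposited measures.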

How the data were processed

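The authors deposited raw counts and TPM for 48794 genes in 14 libraries, and a variance-stabilised score that was left out here. The build GRCm38 is named in the submitters' processing notes, which list DESeq2 1.34.0, FastQC 0.11.5, featureCounts 1.5.1, STAR 2.5.2b and RSEM 1.3.0. Their roles, the strand setting and the treatment of reads that map to several segments are not given in the sources used here. The name of the column for the first library of 20000 cells has 1 character more than its label.

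CPM are counts over library totals, and 0 columns were left unmapped. Per gene, edgeR 4.0.16 (R 4.3.3; TMM factors, filterByExpr, robust quasi-likelihood F test, Benjamini-Hochberg adjustment over all genes tested, threshold 0.05) was fitted with a mean per group, on 14 libraries for bulk liver and on 12 for cell number. The slope came from a separate fit of a line on log2 cell number, on the same 12 libraries. Library measures were set against log2 cell number in two-sided permutation tests of 100000 resamples, or in an exact test for 2500 cells against the rest. The edgeR script was tested on simulated counts, and the equal-depth calculation on cases with a known answer. The simulated spread was the same for all genes and below the median of the Ighv segments, so that test does not give the power for them. Alternatives were RLE factors, totals alone, no filter, DESeq2 1.42.0, a replicate block, TPM, other measures and each library left out. Low counts are limited by counting error in addition to the spread between libraries.

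Named segments are the 10 with the highest mean CPM, those that passed a test of cell number, the 5 with the highest share of counts in 1 library among those with at least 100 counts, and 4 with a known role. Others are marked in the text or given as examples of a count, range or sequence, chosen after their values were seen. Members, lists and tests were chosen with earlier results of these data known. Sequences and coordinates come from GENCODE M21 (GRCm38).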

Additional observations from a re-analysis of the deposited data

How the results depend on the processing

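Without the filter on low counts 16 segments differed among cell numbers and 6 between 2500 and 20000 cells, against 1 and 2 with it. The number tested and the share of all genes called without the filter are not given here. Among the 16, the lowest edgeR adjusted p were 6.49e-108 for Ighv4-1 and 6.57e-34 for Ighv1-80. Each of these segments stood far above its level elsewhere in a single library. The 16 can therefore not be read as differences shared by the libraries of a cell number. DESeq2 called 1 segment for the slope, where edgeR called 0, and 1 between 2500 and 20000 cells, Ighv1-81; it gave no adjusted p for Ighv1-63. The fit with the bulk libraries called 1 between 2500 and 20000 cells. Libraries of equal number were not treated as pairs: their deviations correlated at -0.0997 to 0.0861 over 18 pairs, and 2 libraries correlated best with their own number. The replicate block left 1 of the 2 calls between 2500 and 20000 cells, Ighv1-63. Leaving out each library gave 0 to 1 segments for any difference, 0 to 2 between 2500 and 20000 cells, 0 for the slope and 61 to 76 against bulk liver. For the summed level, r ran from -0.0153 to 0.402 with each library left out, fell to -0.255 without 2 libraries at the ends of the scale and to -0.741 without the 2500-cell libraries. With 2500 cells against the rest, an alternative added like the other splits of libraries after the data were seen, r was 0.704 for the level, 0.494 for segments at equal depth and -0.324 for evenness. Segments with at least 10 counts gave r of -0.0758. Evenness gave r of 0.108 to 0.323 with each library left out, 0.720 without the 2500-cell libraries and -0.0583 without the 2 uneven ones. The difference in dissimilarity, 2500 minus 20000 cells, ran from -0.00725 to 0.0212 with each library left out. It was 0.0291 without the top segment of each library, 0.0331 as Jaccard distance and 0.0625 as chi-square per degree of freedom. The cause of these changes was not tested. Segments with few counts are limited by depth, since the shallowest library held 3079 Ighv counts.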

Other observations

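Transcripts of the V(D)J recombination machinery were set beside the segments. Dntt, which adds bases at the junctions of the segments, was at 13.0 to 23.0 CPM in the sorted libraries and at 1.31 and 0.996 CPM in bulk liver. Rag1 and Rag2, which cut the locus, were at or below 0.527 and 0.587 CPM in every library and at 0 in both bulk libraries. Dntt did not differ between 2500 and 20000 cells by edgeR's adjusted p, and Rag1 and Rag2 were too low to be tested.

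Ighv1-82 lies next to Ighv1-80 in the list of highest segments and 2 places further along the locus. Each is also the nearest segment to the other in sequence, with 16 edits and 95.4% identity. Whether reads of one were counted on the other was not tested. Ighv1-82 reached 37.2 CPM in the first library of 5000 cells, the one with the Ighv1-80 peak, and 26.0 CPM in the first of 20000 cells, against 11.8 to 20.4 CPM in the other 10. The pseudogene Ighv1-83, the next segment outward, had 24 of its 40 counts in the same library of 5000 cells, at 2.82 CPM, and 1.04 CPM in the first of 20000 cells, against at most 0.211 CPM elsewhere. These segments were picked after their values were seen, and no test was made.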
